A study of Homo sapiens with 4 samples.

Results

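Aminoacyl-tRNA synthetases, the enzymes that join each amino acid to its transfer RNA (tRNA), were followed in a colorectal cancer cell line in the presence and absence of TGF-β1. The set held 35 genes, chosen by name: 19 for cytosolic enzymes and 16, with symbols ending in 2, for mitochondrial ones. A gene was measured where at least 1 probe set of the array carried its symbol alone, and the brightest such probe set by the mean of all arrays stood for it. This gave 32 of the 35 genes, 17 cytosolic and 15 mitochondrial, among 19775 genes in all. MARS1, QARS1 and TARS2 had no probe set of their own by this rule and were not analysed here, and the enzymes for aspartate were not in the set.

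The arrays came from LSTGFBR2, a line with a TGFBR2 construct that doxycycline switches on, grown in DMEM with serum. TGFBR2 encodes the type II TGF-β receptor. There were 2 arrays of cells whose treatment is given as none, here called untreated, and 2 of cells that received 5 ng/ml recombinant human TGF-β1 for 16 hours, starting 16 hours after seeding. The treatment protocol gives doxycycline at 1 μg/ml from seeding, while the design text speaks of cells seeded both with and without it, and no label says which arrays had it. The labels do not say whether the line was a single clone or the replicates separate cultures.

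Values are log2 expression after RMA. Its quantile step makes the arrays' distributions alike, which hides any shift shared by most genes. The construct's gene set the groups apart: TGFBR2 read 9.44 and 9.55 without TGF-β1 and 14.70 and 14.92 with it by its brightest probe set, a log2 fold change of 5.32, while its other probe set gave 0.03. Effects of TGF-β1, of the receptor's level and of doxycycline cannot be told apart in this design. Replicate arrays correlated at r = 0.996 across genes and arrays of different groups at 0.990 to 0.992. The epithelial markers EPCAM (14.12 to 14.29) and KRT18 (14.95 to 15.17) were bright on every array. KRT20 was dimmer and uneven, at 8.78 and 7.30 without TGF-β1 and 8.16 and 6.74 with it. Of 12 colon epithelial markers 8 had log2 fold changes above 0 (median 0.075), 2 fell (LGR5 at -1.34 and CDX2 at -0.73) and 0 rose by limma, against 1.47% of all genes called lower and 1.87% higher. At an unadjusted limma p under 0.05 only, CDH1 (0.56) and KRT19 (0.47) were higher and CDX1 (-0.49) was lower. All 6 endothelial markers (3.62 to 7.58) and the 5 measured of 7 leukocyte markers (4.50 to 7.38) were under the gene medians of 7.64 to 7.67 on every array, with CDH5 at 4.69 to 4.86 and PTPRC at 4.50 to 4.75. The 9 fibroblast markers ranged from 3.06 to 9.37. Of these COL1A1 (9.29 to 9.37) was above the gene medians on every array and COL3A1 (9.18, 7.48, 7.38 and 5.83) on the first untreated array, and 0 of the markers in these 3 lists passed the test (limma, 2 lower at an unadjusted p under 0.05). Their part in the results was not tested.

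Most synthetases recognise 1 amino acid and its tRNAs, and the charged tRNA is then carried to the ribosome by an elongation factor. Cytosolic protein synthesis and protein synthesis inside mitochondria use separate sets of enzymes for most amino acids, all encoded in the nucleus. Several cytosolic enzymes sit together in the multi-synthetase complex, held by the scaffold proteins AIMP1, AIMP2 and EEF1E1. Genes of many cytosolic enzymes are known targets of ATF4, the transcription factor of the amino acid response, which cells switch on when amino acids run short. In RNA from many cells, less RNA per cell and fewer cells that express a gene cannot be told apart.

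The promoters of the family were searched for letters of 2 known elements. RefSeq start-site windows (GRCh38.p14, 250 bases before to 50 after the start) were matched for 30 of the 35 genes, the others being AARS2, LARS1, VARS1, VARS2 and YARS1. The letters TGATGNAA, the core of the element bound by ATF4 with C/EBP partners, were searched on both strands (TTNCATCA on the other). They stood in windows of 7 of 16 cytosolic genes and 1 of 14 mitochondrial genes, against 4.46% of the 27305 genes of the promoter table. The cytosolic genes were AARS1, CARS1, GARS1, IARS1, MARS1, NARS1 and TARS1, and the mitochondrial one was YARS2. CACGTG, the E-box that MYC with MAX can bind and the same on both strands, stood in windows of 1 of 16 cytosolic genes (IARS1) and 3 of 14 mitochondrial genes (CARS2, EARS2 and MARS2), against 8.77% of all genes. A match is a description of letters and shows no binding. The stretches below, 60 bases each and all before the start site, are shown because they hold these letters in 3 ATF4-linked cytosolic genes and in the 2 mitochondrial genes with the lowest log2 fold changes on the arrays, with the matches in capitals.
GARS1, chr7:30594818-30594877, plus strand: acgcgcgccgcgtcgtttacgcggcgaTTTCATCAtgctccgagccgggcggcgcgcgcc
IARS1, chr9:92293698-92293757, minus strand: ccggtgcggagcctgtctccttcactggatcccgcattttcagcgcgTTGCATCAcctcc
AARS1, chr16:70289660-70289719, minus strand: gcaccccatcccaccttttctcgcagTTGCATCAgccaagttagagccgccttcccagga
MARS2, chr2:197705309-197705368, plus strand: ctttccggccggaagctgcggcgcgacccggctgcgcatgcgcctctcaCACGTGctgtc
EARS2, chr16:23557351-23557410, minus strand: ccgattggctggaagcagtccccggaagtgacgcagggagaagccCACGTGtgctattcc
In GARS1 and IARS1 the first base of the ATF4-type match lay 33 and 13 bases upstream of the start, and in AARS1 187 bases upstream. The E-box began 11 bases upstream in MARS2. In EARS2 it began 15 bases upstream of the start used here and lay downstream of a second listed start. In CARS1 and MARS1 the ATF4-type match began 2 and 4 bases upstream and ran past the start, and in TARS1 and NARS1 it lay just downstream of it.

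With TGF-β1, 1 of the 32 synthetase genes fell, 0 rose and 31 did not pass. A gene passed at a limma p under 0.05 after Benjamini-Hochberg adjustment over the 19775 genes. The share of all genes called was 3.34% (1.47% lower and 1.87% higher), so 1 of 32, or 3.12%, is near the background and is not a result about the family. The log2 fold change, TGF-β1 minus untreated, had a median of -0.10 over the 32 genes and -0.004 over all genes. It was below 0 for 25 of the 32 genes, 78.1%, against 51.1% of all genes. Most of these differences were small. For 26 genes the 95% interval included 0, and over these genes the intervals allowed falls of up to 1.5-fold and rises of up to 1.46-fold. At an unadjusted limma p under 0.05, 6 genes were lower (18.8%, against 8.54% of all genes) and 0 higher (against 8.18% of all genes). All 32 genes were bright, with no value under 8.42, so the 9221 genes whose mean log2 reached 8 are a closer background. Among those bright genes 2.68% were called lower, and 14.1% were lower at the unadjusted p.

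**Figure D1:**
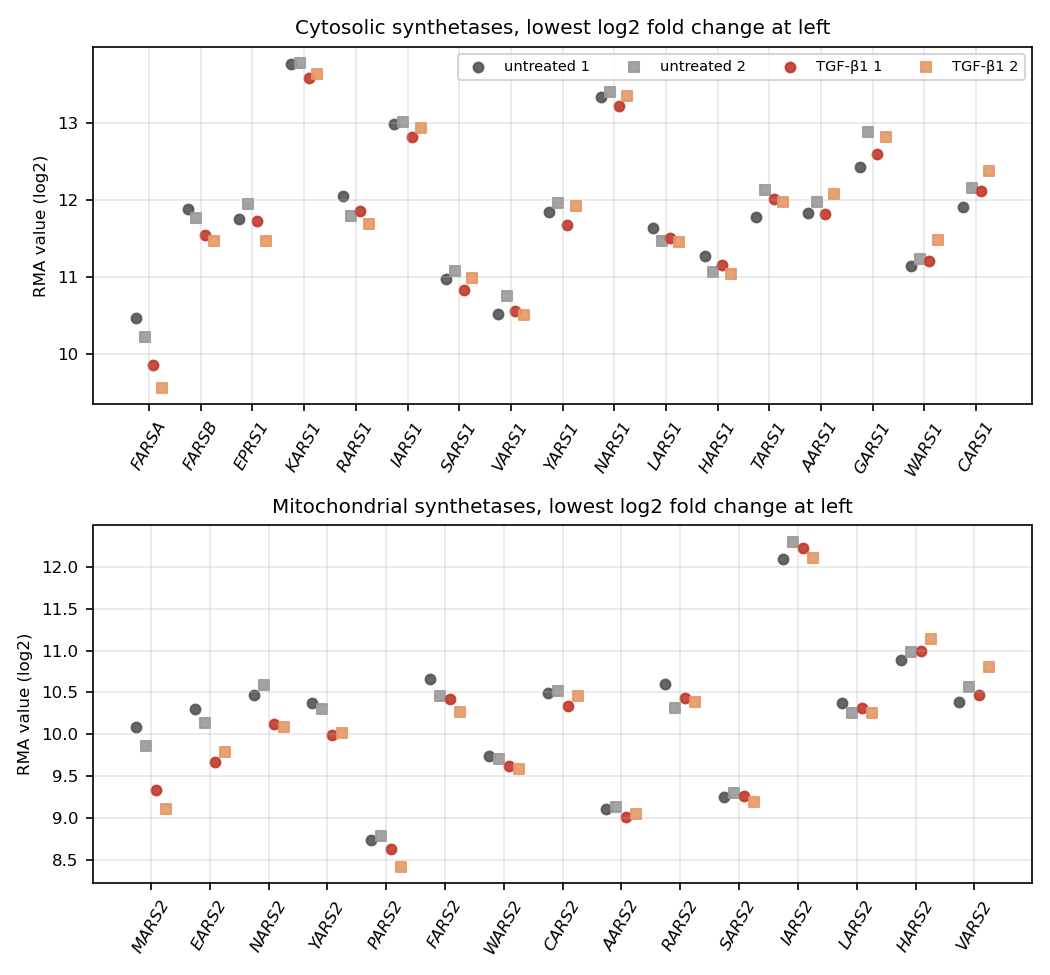
RMA values on the log2 scale (vertical axis) of the 17 cytosolic (top) and 15 mitochondrial (bottom) synthetase genes on the 2 untreated arrays (grey) and the 2 TGF-β1 arrays (red and orange), with genes ordered by log2 fold change. Both TGF-β1 points lie clearly below both untreated points for FARSA, MARS2, EARS2 and NARS2, while for GARS1, AARS1 and CARS1 the arrays numbered 2 (squares) lie above those numbered 1 (circles) in each group.

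The gene that fell was MARS2, which encodes the mitochondrial methionyl-tRNA synthetase, the enzyme that supplies both the starting and the internal methionine of proteins made in mitochondria. It read 10.08 and 9.86 without TGF-β1 and 9.34 and 9.11 with it. Both TGF-β1 arrays were below both untreated arrays, and the gap between the groups exceeded the difference between replicates in either. MARS2 was 1.68-fold lower, a log2 fold change of -0.75 ± 0.131 (SE, n = 2 per group, adjusted p = 0.0429 by limma). The call was close to the threshold and was lost without any 1 of the 4 arrays (adjusted p from 0.115 to 0.231), with p adjusted over all probe sets (0.0671) and with arrays centred on housekeeping genes (0.0583). A single probe set reads MARS2, so no other probe set bears on it.

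MTFMT encodes the enzyme that formylates mitochondrial methionyl-tRNA after MARS2 has charged it. Its log2 fold change was -0.26 ± 0.119 (SE) and did not pass (adjusted p = 0.346 by limma).

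The next lowest values among mitochondrial enzymes were those of EARS2, NARS2 and YARS2, none of which passed. EARS2, the mitochondrial glutamyl-tRNA synthetase, read 10.30 and 10.13 without TGF-β1 and 9.67 and 9.79 with it. Its log2 fold change was -0.49 ± 0.112 (SE, adjusted p = 0.0831 by limma). EARS2 was read by 4 probe sets, and on each of them both TGF-β1 arrays lay below both untreated arrays, with log2 fold changes from -0.49 to -0.14. These probe sets read the same gene and are not independent, and 23.0% of all genes had such groups by the brightest probe set (29.7% of the bright genes). EARS2 also charges the mitochondrial tRNA for glutamine, and the amidotransferase encoded by QRSL1, GATB and GATC then converts the attached glutamate. None of those genes passed, at -0.21, -0.20 and -0.32 on the log2 scale.

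NARS2, the mitochondrial asparaginyl-tRNA synthetase, read 10.48 and 10.59 without TGF-β1 and 10.12 and 10.09 with it, a log2 fold change of -0.43 ± 0.102 (SE, adjusted p = 0.0887 by limma). The untreated values of NARS2 stood apart from the TGF-β1 values on all arrays. YARS2, the mitochondrial tyrosyl-tRNA synthetase, read 10.37 and 10.31 against 9.99 and 10.02, with a log2 fold change of -0.33 ± 0.098 (SE, adjusted p = 0.148 by limma). Its groups did not overlap either.

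At the other end, VARS2 (valine) and HARS2 (histidine) were the mitochondrial genes with positive log2 fold changes. VARS2 read 10.38 and 10.57 without TGF-β1 and 10.47 and 10.80 with it (log2 fold change 0.16 ± 0.145 SE), so its groups overlapped. HARS2 read 10.89 and 10.98 without TGF-β1 and 10.997 and 11.14 with it, and was the only 1 of the 32 genes with both TGF-β1 arrays above both untreated arrays. Its log2 fold change was 0.13 ± 0.106 (SE) and did not pass (adjusted p = 0.647 by limma). LARS2 (leucine) read 10.37 and 10.25 against 10.32 and 10.25, with a log2 fold change of -0.03 and a 95% interval from -0.28 to 0.23.

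The remaining mitochondrial genes, AARS2, CARS2, FARS2, IARS2, PARS2, RARS2, SARS2 and WARS2, had log2 fold changes from -0.24 (PARS2) to -0.03 (IARS2). Over the 15 mitochondrial genes, 13 log2 fold changes were below 0 and the median was -0.11. Both TGF-β1 arrays lay below both untreated arrays for 9 of the 15 mitochondrial (60%) and 5 of the 17 cytosolic genes (29.4%), 14 of 32 or 43.8%. The same held for 23.0% of all genes and 29.7% of those bright genes, so the cytosolic share was near that of the bright genes. Both TGF-β1 arrays lay above both untreated arrays for 1 of 32 synthetase genes (21.4% of all genes and 26.9% of the bright genes).

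**Figure D2:**
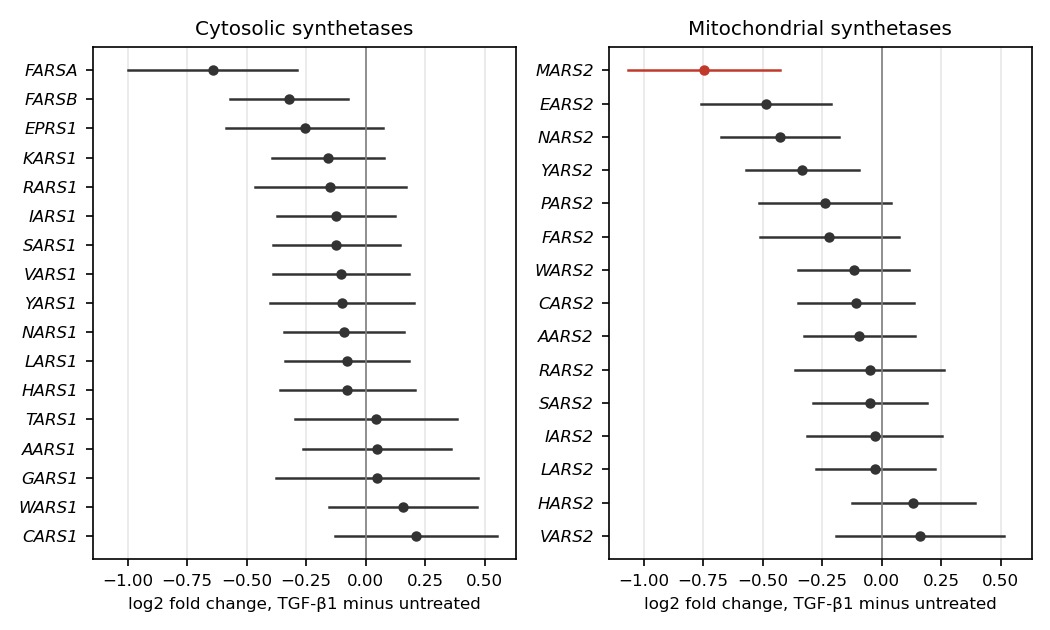
Log2 fold change (horizontal axis, TGF-β1 minus untreated) of each synthetase gene by limma over 2 arrays per group, with bars for the 95% interval, cytosolic at left and mitochondrial at right. The only gene past the adjusted threshold, MARS2, is in red, and the intervals of FARSA, FARSB, EARS2, NARS2 and YARS2 also lie below 0 without passing it.

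Of the 17 cytosolic genes 0 passed by limma. At an unadjusted p under 0.05, 2 were lower and 0 higher, and these were FARSA and FARSB, which encode the α and β subunits of phenylalanyl-tRNA synthetase. The 2 of 17, or 11.8%, lie between the shares of all genes (8.54%) and of bright genes (14.1%) lower at that p, so the count is not a result about the cytosolic enzymes. FARSA read 10.46 and 10.22 without TGF-β1 and 9.85 and 9.55 with it. Its log2 fold change was -0.64 ± 0.146 (SE, 1.56-fold lower, adjusted p = 0.0802 by limma). FARSB read 11.88 and 11.77 against 11.54 and 11.47, with a log2 fold change of -0.32 ± 0.102 (SE, adjusted p = 0.178 by limma). For both subunits the TGF-β1 arrays lay below the untreated arrays without overlap. The second FARSA probe set read 9.87 and 9.57 against 9.15 and 9.14, a log2 fold change of -0.57 ± 0.134 (SE). FARSB had 2 dimmer probe sets, read between 4.33 and 5.77, with log2 fold changes of -0.75 and -0.71. All 5 probe sets of the enzyme had non-overlapping groups in the same direction, but probe sets of the same gene are not independent. Such groups held for 23.0% of all genes and 29.7% of the bright genes, each by the brightest probe set. None of the 5 passed over all probe sets (limma adjusted p from 0.0663 to 0.245). With the probe sets of each gene averaged, FARSB passed (log2 fold change -0.59, adjusted p = 0.0304 by limma) and FARSA did not (0.0599). FARS2, the single-chain mitochondrial enzyme for phenylalanine, read 10.67 and 10.46 against 10.42 and 10.27, and its log2 fold change of -0.22 ± 0.120 (SE) did not pass.

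The 5 measured enzymes of the multi-synthetase complex, of 7 listed, had log2 fold changes below 0, as did 78.1% of the 32 synthetase genes and 51.1% of all genes. All 5 were also below 0 with arrays centred on medians or housekeeping genes, but not without the first untreated array, where LARS1 was at 0.004. Of the 5, 0 passed by limma, 0 also at an unadjusted p under 0.05. The 5 were EPRS1 (-0.26), the bifunctional enzyme for glutamate and proline, KARS1 (-0.16) for lysine, RARS1 (-0.15) for arginine, IARS1 (-0.12) for isoleucine and LARS1 (-0.08) for leucine. EPRS1 read 11.75 and 11.95 without TGF-β1 and 11.73 and 11.46 with it by the probe set used. Its other probe sets gave log2 fold changes of -0.01 and -0.24 with overlapping groups, so its non-overlapping groups held for 1 of 3 probe sets. KARS1, whose gene encodes both the cytosolic and the mitochondrial enzyme, read 13.77 and 13.78 against 13.59 and 13.64, a difference of -0.16 ± 0.097 (SE, 95% interval -0.40 to 0.08). Of the complex's scaffold genes AIMP1 was measured, with a log2 fold change of -0.19 ± 0.100 (SE, adjusted p = 0.429 by limma).

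The highest cytosolic values belonged to CARS1, WARS1 and GARS1. CARS1, the cysteinyl enzyme, read 11.91 and 12.15 without TGF-β1 and 12.11 and 12.37 with it, a log2 fold change of 0.21 ± 0.139 (SE, adjusted p = 0.559 by limma). WARS1, the tryptophanyl enzyme and a known interferon-induced gene, read 11.14 and 11.23 against 11.20 and 11.49 (0.16 ± 0.128 SE, adjusted p = 0.658 by limma). GARS1, which like KARS1 serves both compartments, read 12.43 and 12.89 against 12.60 and 12.82 (0.05 ± 0.175 SE). The groups overlapped for all of these genes, and the interval for GARS1 ran from -0.38 to 0.47, the widest of the 32.

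AARS1 (alanine) and TARS1 (threonine) had log2 fold changes of 0.05 and 0.04. HARS1, NARS1, SARS1, VARS1 and YARS1 lay between -0.12 and -0.08, and none passed. The median was -0.10 over the 17 cytosolic genes, close to the -0.11 of the mitochondrial genes, and the difference was not tested. By structural class, the median was -0.10 over 7 class I cytosolic enzymes and -0.09 over 9 class II ones.

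Of 11 amino acids with 1 measured gene for each compartment, both log2 fold changes were below 0 for 6, they had opposite signs for 5 and were both above 0 for 0. The cytosolic gene had the higher value for 5 amino acids and the mitochondrial gene for 6. The asparagine pair differed most among those with both below 0, with -0.09 for NARS1 and -0.43 for NARS2. The cysteine pair had 0.21 for CARS1 and -0.11 for CARS2, neither past the threshold. HARS1 and HARS2 are neighbours read in opposite directions, with RefSeq start sites 85 bases apart on chromosome 5 (140691370 and 140691455). HARS1 read 11.27 and 11.07 without TGF-β1 and 11.15 and 11.03 with it, a log2 fold change of -0.08 ± 0.117 (SE), against 0.13 for HARS2.

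The 32 genes were read by 67 probe sets, 51 of which had a log2 fold change below 0. For 15 genes 2 or more probe sets had a mean log2 of at least 7. The directions of these brighter probe sets were alike for 14 of the 15 genes, all below 0 for 12 and all above 0 for 2, CARS1 and WARS1. RARS2, with log2 fold changes from -0.08 to 0.01 among its brighter probe sets, was the exception. SARS1 (serine) showed the widest gap in size among genes with brighter probe sets only. Its probe set used, the brighter, gave -0.12 ± 0.114 (SE) in the fit over all probe sets, while the other read 9.38 and 9.49 without TGF-β1 and 9.03 and 8.97 with it, a log2 fold change of -0.43 ± 0.107 (SE, adjusted p = 0.134 by limma).

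**Figure D3:**
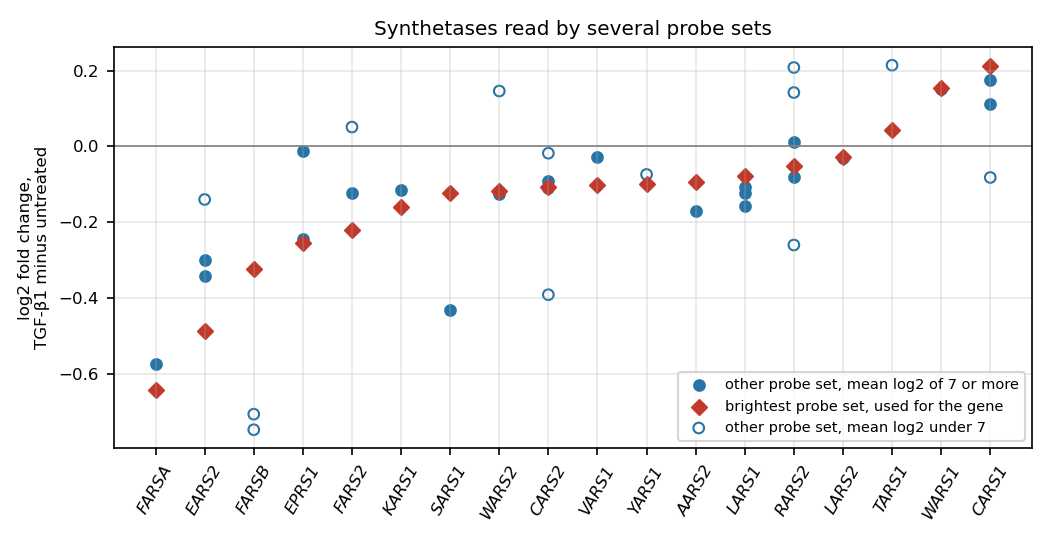
Log2 fold change (vertical axis, TGF-β1 minus untreated) of every probe set for the 18 synthetase genes with several, in the order of the probe set used (red diamonds), with other probe sets as blue circles, open where the mean log2 was under 7. FARSA, EARS2 and FARSB are among the genes that lie below 0 on all their probe sets. CARS1, FARS2, RARS2 and WARS2 have values on both sides of 0.

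Among the synthetases that are known ATF4 targets, AARS1, CARS1, GARS1 and YARS1 differed more between replicates of either group than between the group means. This was not counted over all genes, and it also held for HARS1, RARS1, IARS2, LARS2, SARS2 and VARS2, which are not on the list of ATF4 targets. Of the 10 measured genes on that list (AARS1, CARS1, EPRS1, GARS1, IARS1, NARS1, SARS1, TARS1, WARS1 and YARS1), 8 read higher on the arrays numbered 2 than on those numbered 1 in both groups, and 0 read lower in both. The same held for 30.9% and 27.2% of all genes, and for 27.1% and 36.4% of the bright genes. Among the 22 other synthetases, 5 were higher in both groups on the arrays numbered 2 and 10 lower, the latter being FARSA, FARSB, HARS1, LARS1, RARS1, FARS2, LARS2, MARS2, RARS2 and WARS2. GARS1 differed by 0.46 between the untreated arrays and 0.22 between the TGF-β1 arrays, and CARS1 by 0.24 and 0.26. AARS1 differed by 0.14 and 0.26, and YARS1 by 0.12 and 0.25. With TGF-β1 the 10 ATF4-linked genes had a median log2 fold change of -0.02, 5 above 0 and 5 below, and 0 passed by limma (0 also at an unadjusted p under 0.05).

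Amino acid response genes outside the family also differed between these arrays. ASNS, the asparagine synthetase gene and a classic ATF4 target, read 11.20 and 12.23 without TGF-β1 and 10.99 and 12.24 with it. It was thus about 1 log2 unit higher on the arrays numbered 2 in each group (differences of 1.03 and 1.25), while its log2 fold change with TGF-β1 was -0.10 ± 0.473 (SE, adjusted p = 0.968 by limma). ATF4 itself read 12.88 and 13.20 against 12.88 and 13.24, and PCK2, the mitochondrial PEP carboxykinase gene, read 9.34 and 9.99 against 9.40 and 10.02. Of 29 measured genes of the amino acid response, 17 (58.6%) were higher on the arrays numbered 2 in both groups and 2 (6.9%) lower. The shares were 30.9% and 27.2% over all genes, and 27.1% and 36.4% over the bright genes. What set these arrays apart was not tested, and the labels name no batch.

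**Figure D4:**
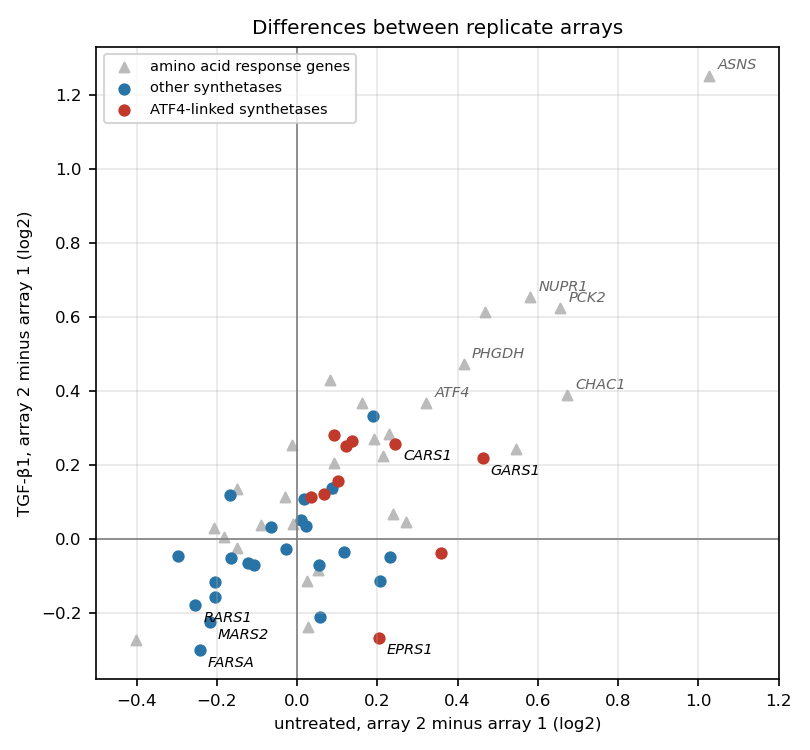
Difference between array 2 and array 1 on the log2 scale within the untreated group (horizontal axis) and within the TGF-β1 group (vertical axis) for ATF4-linked synthetases (red), other synthetases (blue) and amino acid response genes (grey triangles). Of the ATF4-linked genes 8 of 10 lie at upper right, above 0 on both axes, on the side of ASNS, while FARSA, MARS2 and RARS1 lie in the lower left.

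By TGF-β1 treatment 0 of the 29 amino acid response genes passed by limma, and 5 were higher and 3 lower at an unadjusted p under 0.05, against 8.18% and 8.54% of all genes. The list median was 0.015. The values farthest from 0 were those of STC2, a secreted glycoprotein gene (-0.63 ± 0.149 SE, adjusted p = 0.0889 by limma), and ATF3, a stress-induced transcription factor gene (0.63 ± 0.241 SE, adjusted p = 0.267 by limma). STC2 read 9.33 and 9.49 without TGF-β1 and 8.60 and 8.97 with it, without overlap. Both TGF-β1 arrays lay below both untreated arrays for 8 of the 29 genes and above them for 8. The shares were 23.0% and 21.4% over all genes, and 29.7% and 26.9% over the bright genes, so the list was near both.

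Other genes act on tRNA before or after charging. Of 11 measured members of this list 0 passed by limma, 2 were lower at an unadjusted p under 0.05 and 0 higher, and 10 of 11 log2 fold changes were below 0 (median -0.20). Of all genes 8.54% were lower at that p and 51.1% had a log2 fold change below 0, and of the bright genes 14.1% were lower at that p. The 2 were TRNT1, which adds the CCA end that receives the amino acid (11.23 and 11.04 in untreated, 10.75 and 10.63 in TGF-β1 arrays, -0.45 ± 0.116 SE, adjusted p = 0.111 by limma), and DTD2, which acts on wrongly charged tRNA (-0.37 ± 0.113 SE, adjusted p = 0.165 by limma). XPOT, the exporter of tRNA from the nucleus, had a log2 fold change of -0.15. Of 5 measured factors that deliver charged tRNA to the ribosome 0 passed by limma and 1 was lower at an unadjusted p under 0.05, the mitochondrial factor gene TSFM (-0.30 ± 0.096 SE, adjusted p = 0.186 by limma). The next in size was EEF1A2, a tissue-restricted form of the cytosolic carrier, at -0.09 (adjusted p = 0.797 by limma). EEF1A1 and TUFM, the cytosolic and mitochondrial carriers of charged tRNA, had values of -0.02 and -0.07.

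The motif groups were then set beside the array values. The 6 measured cytosolic genes with TGATGNAA had log2 fold changes from -0.12 (IARS1) to 0.21 (CARS1), and YARS2 had -0.33. The genes with CACGTG had -0.75 (MARS2), -0.49 (EARS2), -0.12 (IARS1) and -0.11 (CARS2). Genes with matched windows but no CACGTG included FARSA (-0.64), NARS2 (-0.43), YARS2 (-0.33) and FARSB (-0.32), and also CARS1 (0.21). MYC, which can bind that E-box, read 12.14 and 11.99 without TGF-β1 and 10.55 and 10.42 with it (log2 fold change -1.58 ± 0.111 SE, adjusted p = 0.00311 by limma). Whether MYC acts on these genes was not tested.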

How the data were processed

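The deposited table gives 1 log2 value for each of 54675 probe sets on 4 HG-U133 Plus 2.0 arrays. The authors made it by RMA (background correction, quantile normalization and summarization), per the series' design text and the submitters' processing notes. The log2 scale was judged from the range, 2.48 to 15.34. The RMA software is not named there. Gene names came from the platform annotation, in which 41097 probe sets had 1 symbol, 1801 several and 11777 none. Of the probe sets with 1 symbol, 41043 were matched by Entrez ID to RefSeq and took the RefSeq symbol. For each gene the probe set with the highest mean was used.

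The 2 groups entered a limma fit (version 3.58.1, R 4.3.3, lmFit with eBayes, no trend or filter, two-sided, 6.13 degrees of freedom), with Benjamini-Hochberg adjustment over 19775 genes. SE and 95% intervals are limma's. An exact permutation test of 2 against 2 arrays cannot go below p = 0.333 and was not used. The p-values rest on the spread of these arrays only, and that spread may be technical, since no label names separate cultures, and the number of arrays limits the precision. RMA gives no detection calls. The fit was tested on simulated data.

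The members and lists were chosen with earlier results of these data known, so no list was tested as a set. Named are all members, with values on every array for called ones and the 3 highest and 3 lowest of each compartment, others being chosen after their values were seen, and for other pathway lists up to 4 called genes or else the 2 with the largest change. TGFBR2 and MYC were named as checks. Of other listed genes, those named beyond this (MTFMT, QRSL1, GATB, GATC, AIMP1, XPOT, EEF1A1, TUFM, ASNS, ATF4, PCK2 and cell type markers) were chosen for their role or after their values were seen. A planned comparison of protein sequences was not run. Alternatives were filters at a mean log2 of 5 or 7, an intensity trend, centring on medians or on 7 housekeeping genes, other choices of probe set, a replicate block and leaving out each array.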

Additional observations from a re-analysis of the deposited data

How the results depend on the processing

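Of the 32 synthetase genes, 23 to 26 had a log2 fold change below 0 in each setting that kept all of them. The count of synthetase genes called was 1 with all settings but these: 0 with arrays centred on housekeeping genes, 0 with p adjusted over all probe sets, 2 with averaged probe sets (MARS2 and FARSB), 2 with the replicate block (MARS2 and FARSA) and 0 with any 1 array left out. All those called were lower. MARS2 passed with the mean log2 minimum of 5 or 7, the intensity trend, centring on medians, averaged probe sets, without _x_at and _s_at probe sets and with the block (adjusted p from 0.0310 to 0.0467). All genes called numbered 660, against 350 with p adjusted over all probe sets and 70 to 104 with 1 array left out, where the lone array of a group is assumed to vary like the other group. The pathway lists had 0 calls, and 1 with averaged probe sets (STC2). Without _x_at and _s_at probe sets TGFBR2 is read by its other probe set (0.03). The median log2 fold change ran from -0.14 to -0.067 over the cytosolic and from -0.13 to -0.087 over the mitochondrial genes. The arrays' shared numbers do not establish pairing, since deviations of same-numbered arrays correlated at 0.364 with only 2 pairs. With the replicate block FARSA passed (adjusted p = 0.0478) and 561 genes were called. An added setting, chosen after seeing the data, joined the replicate block with averaged probe sets. It called 1102 genes, 3 synthetases (FARSA, FARSB and MARS2) and 3 pathway genes (TRNT1, STC2 and NUPR1). The cause of these differences was not tested. The number of arrays, 2 per group, limits what could pass.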
